A study of Mus musculus with 8 samples.

Results

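The enzymes described here carry acetyl-CoA units to squalene, an open-chain intermediate of cholesterol synthesis. The members were the 7 genes Hmgcs1, Mvk, Pmvk, Mvd, Idi1, Fdps and Fdft1, each taken with every probe set that the platform annotation assigns to that single symbol. These were 16 of the 18443 probe sets in the table. Hmgcs1 had 4 of them, Fdft1 3, Mvk, Mvd, Idi1 and Fdps 2 each, and Pmvk 1. The RNA was that of enterocytes, which line the small intestine and absorb nutrients, taken from male C57BL/6 mice aged 2.5 to 3.0 months on a standard diet. Mice labelled IE-Cpr-null, in which NADPH-cytochrome P450 reductase (Cpr) is deleted from the intestinal epithelium, were compared with wild-type (WT) littermates. No mouse received a drug or other agent. The labels do not name the Cre driver, which in the published account of the line is the villin promoter. Each genotype had 4 single-colour arrays, each with the RNA of 2 mice combined (8 mice per genotype), so the replicate spread was that between pools. The small number of arrays limits the precision, and the transcript of the deleted gene is not analysed here.

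The pathway begins in the cytosol, where Hmgcs1 makes HMG-CoA and a reductase turns it into mevalonate. Mvk, Pmvk and Mvd phosphorylate and decarboxylate mevalonate to isopentenyl diphosphate, Idi1 isomerises it, Fdps joins the units to farnesyl diphosphate, and Fdft1 joins a pair of farnesyl groups head to head into squalene. None of these 7 enzymes takes electrons from Cpr, whereas the later squalene epoxidase Sqle and lanosterol demethylase Cyp51 do. Their genes are known targets of the transcription factor SREBP-2, which is released when sterol in the endoplasmic reticulum is low and which acts at promoters together with NF-Y and Sp1. Farnesyl diphosphate also feeds ubiquinone, dolichol and protein prenylation.

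Promoter windows, from 250 bases before to 50 after the RefSeq gene start (build GRCm38.p6), were available for 5 of the 7 genes and are shown because the transcripts of these genes differed together between the genotypes. Letters are lower case, and capitals mark each CCAAT box, the motif bound by NF-Y (read as ATTGG where it lies on the other strand), and each TCACNCCAC, a form of the sterol regulatory element bound by SREBP. Both strands were searched, and the 2 motifs did not overlap. Hmgcs1 lies on the plus strand at chr13:119690101-119690400, Mvk on the plus strand at chr5:114444019-114444318, Pmvk (the first of 2 annotated starts) on the plus strand at chr3:89454291-89454590, Mvd on the minus strand at chr8:122443373-122443672, and Idi1 on the plus strand at chr13:8885356-8885655. Each is printed 5′ to 3′ along its gene.
Hmgcs1: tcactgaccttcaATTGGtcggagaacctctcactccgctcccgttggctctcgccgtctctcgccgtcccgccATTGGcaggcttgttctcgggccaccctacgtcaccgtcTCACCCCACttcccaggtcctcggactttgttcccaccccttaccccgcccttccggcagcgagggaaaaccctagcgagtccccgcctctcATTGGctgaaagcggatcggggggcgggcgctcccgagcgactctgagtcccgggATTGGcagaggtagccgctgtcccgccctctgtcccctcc
Mvk: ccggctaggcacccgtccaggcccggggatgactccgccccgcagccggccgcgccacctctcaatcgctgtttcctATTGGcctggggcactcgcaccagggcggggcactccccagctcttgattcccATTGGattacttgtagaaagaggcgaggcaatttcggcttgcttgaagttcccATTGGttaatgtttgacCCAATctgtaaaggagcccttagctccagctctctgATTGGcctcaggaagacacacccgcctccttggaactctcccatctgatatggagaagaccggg
Pmvk: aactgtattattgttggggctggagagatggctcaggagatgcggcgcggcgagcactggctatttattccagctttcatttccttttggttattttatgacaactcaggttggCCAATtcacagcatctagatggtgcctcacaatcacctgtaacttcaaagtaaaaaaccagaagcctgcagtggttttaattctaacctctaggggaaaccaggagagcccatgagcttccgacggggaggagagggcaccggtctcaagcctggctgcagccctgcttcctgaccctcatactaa
Mvd: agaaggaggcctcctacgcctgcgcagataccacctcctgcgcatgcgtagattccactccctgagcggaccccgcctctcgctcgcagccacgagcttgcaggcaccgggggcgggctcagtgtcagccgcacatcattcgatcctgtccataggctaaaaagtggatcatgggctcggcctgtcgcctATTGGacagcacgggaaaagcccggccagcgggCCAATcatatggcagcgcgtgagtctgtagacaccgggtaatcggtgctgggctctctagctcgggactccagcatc
Idi1: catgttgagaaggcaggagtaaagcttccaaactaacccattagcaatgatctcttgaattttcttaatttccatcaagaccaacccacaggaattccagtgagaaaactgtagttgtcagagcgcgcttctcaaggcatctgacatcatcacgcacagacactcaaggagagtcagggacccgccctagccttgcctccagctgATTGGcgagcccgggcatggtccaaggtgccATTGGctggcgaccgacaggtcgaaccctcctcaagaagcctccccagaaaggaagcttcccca

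All 5 windows held a CCAAT box on at least 1 strand. Mvk had 5 boxes and Hmgcs1 4, Mvd and Idi1 had 2 each, and Pmvk had 1. Of all 32851 promoter windows of this length in the table, 37.4% held one. The second annotated Pmvk start held none. The TCACNCCAC element was found once, in Hmgcs1, starting 137 bases before the gene start, and in 1.24% of all windows. The Sp1 motif GGGCGG was found on either strand at 4 of the 6 starts, all but the 2 of Pmvk, in 35.7% of all windows and in 58% of the 10765 windows of genes on the array. For CCAAT and TCACNCCAC the share among genes on the array was 37.3% and 1.22%. A match describes letters in a short window and does not show binding, and nothing follows from a motif that was not found.

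**Figure D1:**
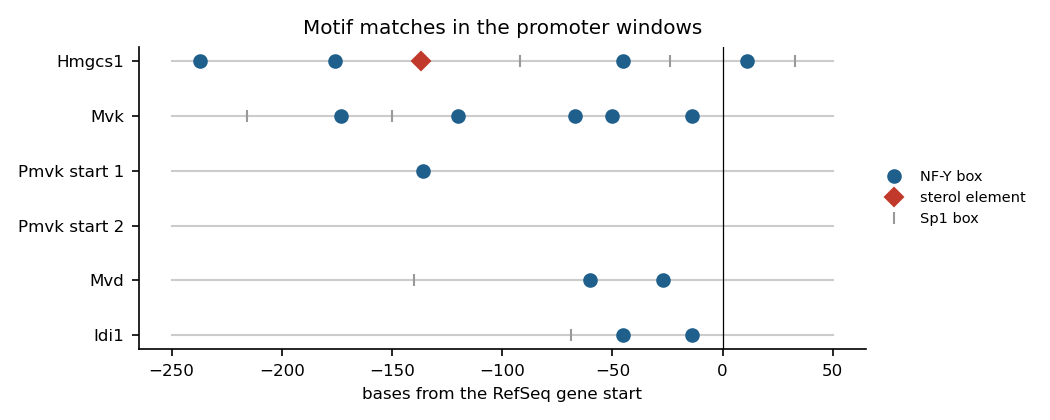
Position of motif matches in the promoter windows of 5 genes (rows, with 2 starts for Pmvk), in bases from the RefSeq gene start at the vertical line. Circles are CCAAT boxes, the diamond is the TCACNCCAC element of Hmgcs1 at -137, and ticks are GGGCGG, each on either strand.

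All 7 genes had higher values in IE-Cpr-null enterocytes, and in each of them the 4 IE-Cpr-null arrays were all above the 4 WT arrays when the probe sets of the gene were averaged. The differences ran from 0.37 (Fdps) to 1.34 (Mvd) on the log2 scale, with a median of 0.57, against a median of 0.016 over all 10401 genes. Non-overlap in this direction was found in 1.85% of all genes. It held for 14 of the 16 member probe sets, against 1.64% of all probe sets. All values are deposited log2 values, centred by the authors on the WT median, so they show differences and not levels, with n = 4 pools per genotype. A limma p-value here weighs the genotype difference against the spread between pools. No member passed the threshold, an adjusted p of 0.05 in limma with Benjamini-Hochberg adjustment over the whole table, either as a gene (0 of 7, adjusted p from 0.0591 to 0.176) or as a probe set (0 of 16, from 0.0896 to 0.869). The threshold was passed by 0.0288% of all genes and 0.0217% of all probe sets. At an unadjusted limma p under 0.05, all 7 genes and 14 of the 16 probe sets were higher and none (0) lower, against 3.27% of all genes and 2.92% of all probe sets higher. Among the 10401 genes ordered by limma p, the members stood between positions 7 (Mvk) and 48 (Idi1). In RNA from isolated cell preparations, more cells that carry a transcript and more transcript per cell cannot be told apart.

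**Figure D2:**
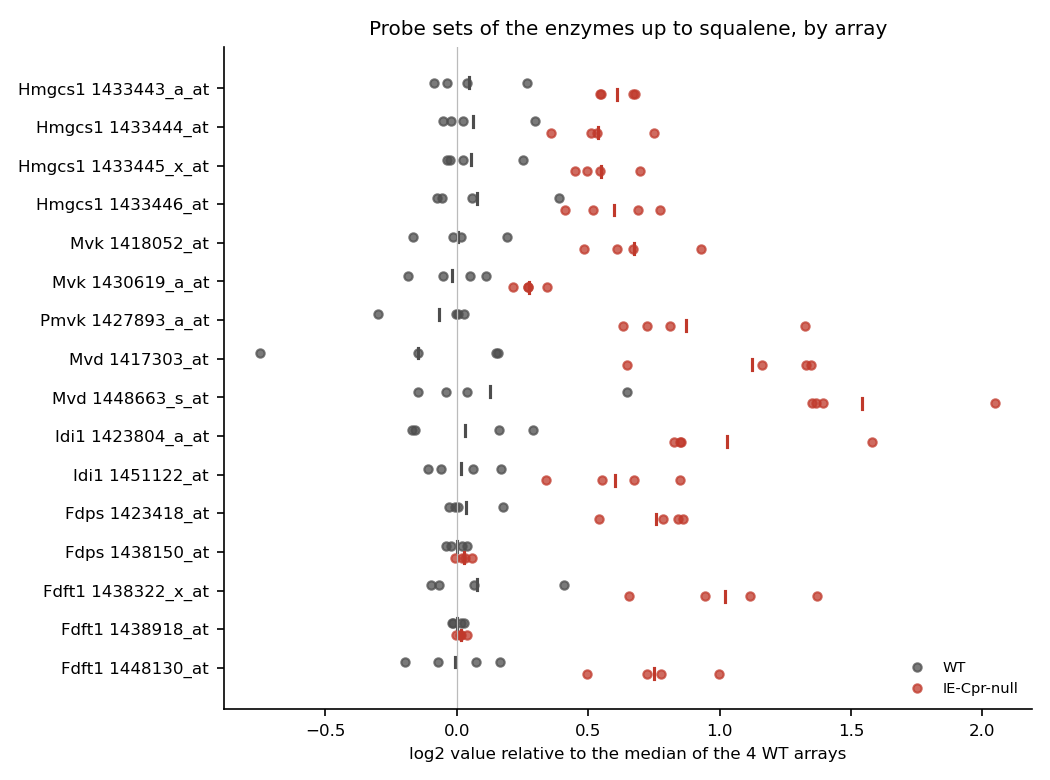
Log2 value of each of the 16 probe sets (rows, in pathway order) on each array, centred on the WT median. Grey points are the WT arrays, red points the IE-Cpr-null arrays and short lines the group means, and the groups are apart in 14 rows and overlap in the rows of Fdps 1438150_at and Fdft1 1438918_at.

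Hmgcs1, the cytosolic HMG-CoA synthase at the entry of the pathway, was 0.51 higher as the mean of its 4 probe sets (SE 0.085, 1.43-fold, limma adjusted p = 0.134). Its WT arrays stood at 0.24, -0.055, 0.093 and -0.043, and its IE-Cpr-null arrays at 0.70, 0.44, 0.63 and 0.52. WT 1 was the highest WT array and IE-Cpr-null 2 the lowest of its group, and the groups did not overlap. The 4 probe sets differed by 0.57 (1433443_a_at), 0.48 (1433444_at), 0.49 (1433445_x_at) and 0.52 (1433446_at), the closest agreement of any gene here with more than 1 probe set. The platform annotation lists the same source sequence for all 4, so they are not independent measurements of the transcript. In each of the 6 pairs, the array-by-array gap between probe sets overlapped between the genotypes, and the gap shifted by at most 0.089.

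Mvk, the mevalonate kinase, was 0.48 higher as a gene (SE 0.057, 1.39-fold, limma adjusted p = 0.0591). Its 2 probe sets separated the genotypes by different amounts. Probe set 1418052_at read -0.17, 0.015, -0.015 and 0.19 on the WT arrays and 0.67, 0.48, 0.61 and 0.93 on the IE-Cpr-null arrays, a difference of 0.67 (SE 0.11). Probe set 1430619_a_at read -0.052, 0.11, 0.052 and -0.18 on the WT arrays and 0.27, 0.34, 0.21 and 0.27 in IE-Cpr-null, a difference of 0.29 (SE 0.069). Neither overlapped between the groups. The gap between them was 0.38 wider in IE-Cpr-null, with overlapping gaps (exact two-sided permutation p = 0.0571, 0.149 after adjustment over the 13 pairs of probe sets compared).

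Pmvk, the phosphomevalonate kinase, was read by 1 probe set, 1427893_a_at, and was 0.94 higher (SE 0.16, 1.92-fold, limma adjusted p = 0.134 over genes). The WT arrays stood at -0.0041, -0.30, 0.026 and 0.0041 and the IE-Cpr-null arrays at 1.32, 0.63, 0.72 and 0.81. WT 2 lay below the other WT arrays, and IE-Cpr-null 1 above the other IE-Cpr-null arrays. Without IE-Cpr-null 1 the difference was 0.79 and Pmvk passed over all genes (limma adjusted p = 0.0379), with 0.365% of all genes passing in that setting. Without IE-Cpr-null 1 and WT 2 it was 0.71 and also passed (limma adjusted p = 0.0368), with 0.0577% passing.

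Mvd, the decarboxylase that yields isopentenyl diphosphate, had the widest separation of the 7 genes, 1.34 as a gene (SE 0.19, 2.54-fold, limma adjusted p = 0.0896). A larger difference in this direction was found in 0.327% of all genes. Probe set 1448663_s_at read 0.040, -0.15, 0.65 and -0.040 on the WT arrays and 2.05, 1.35, 1.37 and 1.40 in IE-Cpr-null, and probe set 1417303_at read -0.75, -0.15, 0.15 and 0.16 on the WT arrays and 1.33, 0.65, 1.35 and 1.16 in IE-Cpr-null. The 2 differed by 1.42 (SE 0.22) and 1.27 (SE 0.24), and both rest on the same source sequence in the platform annotation. They differed in which arrays stood out, with WT 3 and IE-Cpr-null 1 high in 1448663_s_at and WT 1 and IE-Cpr-null 2 low in 1417303_at. With WT 3 and IE-Cpr-null 1 left out, a setting chosen after seeing the data, Mvd passed over all genes (1.36, limma adjusted p = 0.0492), where 0.231% passed. Hmgcs1 probe set 1433443_a_at (0.62, limma adjusted p = 0.0422) and Mvd probe set 1448663_s_at (1.42, limma adjusted p = 0.0026) passed there over all probe sets, with 0.157% passing.

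Idi1, the isopentenyl diphosphate isomerase, was 0.79 higher as a gene (SE 0.15, 1.73-fold, limma adjusted p = 0.176). Probe set 1423804_a_at read 0.16, -0.17, 0.29 and -0.16 on the WT arrays and 1.58, 0.85, 0.85 and 0.83 in IE-Cpr-null, a difference of 1.00 (SE 0.20). Probe set 1451122_at read 0.061, -0.11, 0.17 and -0.061 on the WT arrays and 0.85, 0.34, 0.67 and 0.55 in IE-Cpr-null, a difference of 0.59 (SE 0.11). IE-Cpr-null 1 was the highest array in both, and the order of the WT arrays was the same in both. The gap between the probe sets was 0.41 wider in IE-Cpr-null, with no overlap of the gaps (exact two-sided permutation p = 0.0286, 0.0929 after adjustment over the 13 pairs). That raw p is the smallest that 4 against 4 arrays allow, and the annotation lists 1 source sequence for both probe sets.

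Fdps, the farnesyl diphosphate synthase, was read by 2 probe sets that differed widely. Probe set 1423418_at read -0.0058, -0.029, 0.18 and 0.0058 on the WT arrays and 0.86, 0.54, 0.84 and 0.78 in IE-Cpr-null, a difference of 0.72 (SE 0.083, 1.65-fold, limma adjusted p = 0.0896), the lowest adjusted p of the 16 probe sets. It passed without IE-Cpr-null 2 (0.79, limma adjusted p = 0.0218), where 0.038% of probe sets passed. Probe set 1438150_at read 0.040, 0.022, -0.041 and -0.022 on the WT arrays and 0.059, 0.031, -0.0080 and 0.020 in IE-Cpr-null, with overlapping groups and a difference of 0.026 (95% interval -0.055 to 0.11). The gene mean of 0.37 (SE 0.045, limma adjusted p = 0.0591) lay between these readings. As a gene, Fdps passed without IE-Cpr-null 1 (0.35, limma adjusted p = 0.0431) and without IE-Cpr-null 2 (0.41, limma adjusted p = 0.0328), where 0.365% and 0.0673% of all genes passed.

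Fdft1, the squalene synthase, was read by 3 probe sets, of which 2 separated the genotypes. Probe set 1438322_x_at read 0.067, -0.099, 0.41 and -0.067 on the WT arrays and 1.37, 0.65, 1.12 and 0.95 in IE-Cpr-null, a difference of 0.94 (SE 0.17). Probe set 1448130_at read 0.073, -0.073, 0.16 and -0.20 on the WT arrays and 1.00, 0.50, 0.78 and 0.72 in IE-Cpr-null, a difference of 0.76 (SE 0.12). Both placed the 4 IE-Cpr-null arrays in the same order, with array 1 highest and array 2 lowest. The third, 1438918_at, stayed between -0.020 and 0.026 on the WT arrays and between -0.0046 and 0.041 in IE-Cpr-null, a difference of 0.015 (95% interval -0.056 to 0.087). As the mean of all 3, Fdft1 was 0.57 higher (SE 0.098, 1.49-fold, limma adjusted p = 0.151).

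The 2 probe sets without a genotype difference, Fdps 1438150_at and Fdft1 1438918_at, followed the median of all probe sets on each array. Those array medians were 0.031, 0.015, -0.025 and -0.017 on the WT arrays and 0.036, 0.019, -0.013 and 0.014 in IE-Cpr-null. The root-mean-square distance to them over the 8 arrays was 0.012 for Fdps 1438150_at and 0.0043 for Fdft1 1438918_at, against 0.20 to 1.13 for the other 14 member probe sets. Within 0.05 of the array medians lay 21.2% of all probe sets. Of the 3993 genes with more than 1 probe set, 914 had some of their probe sets within that distance and some beyond it. Centring removed the levels, so whether these probe sets detected their transcript at all was not tested. With such probe sets left out of the whole table, a setting chosen after seeing the data, the gene differences were 0.72 for Fdps (SE 0.088, limma adjusted p = 0.0522) and 0.85 for Fdft1 (SE 0.14, limma adjusted p = 0.118), and the median of the 7 genes was 0.79.

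**Figure D3:**
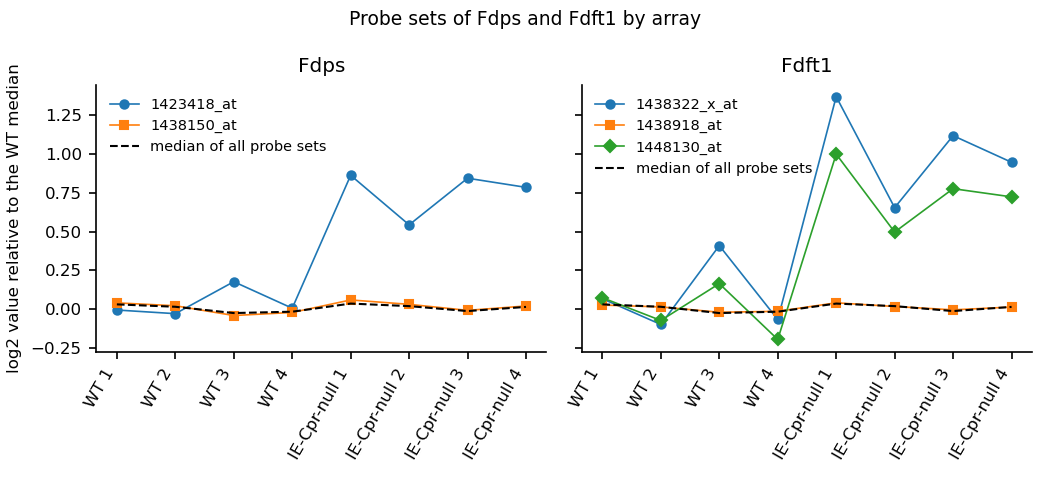
Log2 values of the probe sets of Fdps (left) and Fdft1 (right) on each of the 8 arrays, relative to the WT median, with the median of all probe sets as a dashed line. Fdps 1438150_at and Fdft1 1438918_at lie on the dashed line, and the other probe sets stand between 0.50 and 1.37 on the IE-Cpr-null arrays.

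Ordered by the size of the gene difference, Mvd came first, then Pmvk, Idi1, Fdft1, Hmgcs1, Mvk and Fdps. Along the pathway the difference was thus 0.51 and 0.48 at the first steps, larger at Pmvk and Mvd, and smaller again from Idi1 onward. Between neighbours in the order of size, the array-by-array gap of Idi1 over Fdft1 did not overlap between the genotypes (0.13 to 0.41 in IE-Cpr-null, -0.089 to 0.056 in WT). This neighbour pair includes the Fdft1 probe set that followed the array medians. The other 5 neighbour pairs overlapped, Mvd and Pmvk among them, where the difference of 0.40 came with gaps of 0.37 to 0.63 in IE-Cpr-null and -0.35 to 0.37 in WT. With the probe sets that followed the array medians left out, Fdps stood at 0.72 and Fdft1 at 0.85, both above Hmgcs1 and Mvk. Fdft1 then also stood above Idi1 (0.79), so the order from Idi1 down depended on which probe sets were averaged.

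**Figure D4:**
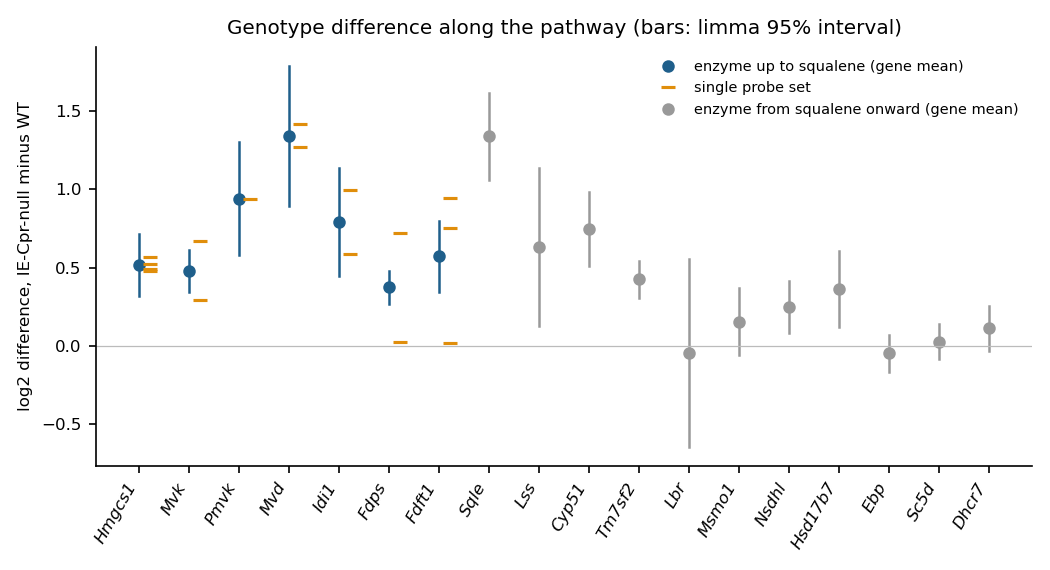
Log2 difference between IE-Cpr-null and WT (y axis) for each gene in pathway order, as the mean of its probe sets, with limma 95% intervals as bars. Blue points are the 7 enzymes up to squalene, with each probe set as an orange dash, and grey points are the enzymes from squalene onward, where Sqle reached 1.34 and Ebp, Sc5d, Dhcr7, Lbr and Msmo1 have intervals that include 0.

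The arrays of 1 genotype differed from each other in the same way in most members. IE-Cpr-null 1 was the highest IE-Cpr-null array in 6 of the 7 genes and 12 of the 16 probe sets, and IE-Cpr-null 2 the lowest in 6 genes and 12 probe sets. The mean of the 7 genes was 0.95, 0.54, 0.71 and 0.69 on IE-Cpr-null 1 to 4, and -0.0057, -0.091, 0.15 and -0.027 on WT 1 to 4. WT 3 was the highest WT array in 5 genes. Mvk departed from this order, with IE-Cpr-null 4 highest and IE-Cpr-null 2 and 3 nearly level (0.4138 and 0.4117). Its probe sets differed here: IE-Cpr-null 2 was the lowest of its group in 1418052_at and the highest in 1430619_a_at.

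Transcripts of other cell types also varied between the arrays. The mean of 15 smooth muscle and stromal markers was 4.23 on IE-Cpr-null 1, against -0.54 to -0.47 for the rest of that genotype, and 1.65 on WT 2 and -0.35 to 0.26 on the other WT arrays. The mean of 14 hepatocyte markers was 4.63 on IE-Cpr-null 2 and 2.89 on IE-Cpr-null 3, and -0.23 to 0.16 on the other 6 arrays. The enzyme means were 0.54 and 0.71 on these 2 arrays and 0.95 and 0.69 on IE-Cpr-null 1 and 4. Without IE-Cpr-null 2 and 3 the median of the 7 genes was 0.66, and without WT 2 and IE-Cpr-null 1 it was 0.50. Leaving out arrays cannot make separate groups overlap. The part of hepatocyte and muscle transcripts in the enzyme difference was not tested. The mean of 16 pancreatic acinar markers, 15 of them lower in IE-Cpr-null, was -3.82 to -1.43 in IE-Cpr-null, -3.53 on WT 3 and -0.57 to 1.39 on the other WT arrays. On WT 3 the 7 enzymes averaged 0.15, and on the IE-Cpr-null arrays between 0.54 and 0.95. The part of acinar transcripts in the enzyme difference was not tested. The 10 measured enterocyte markers, such as villin (Vil1) and the fatty acid binding proteins Fabp1 and Fabp2, had 5 higher and 5 lower, a median difference of -0.0080 and array means between -0.097 and 0.029. The levels of these markers are not known from centred values.

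**Figure D5:**
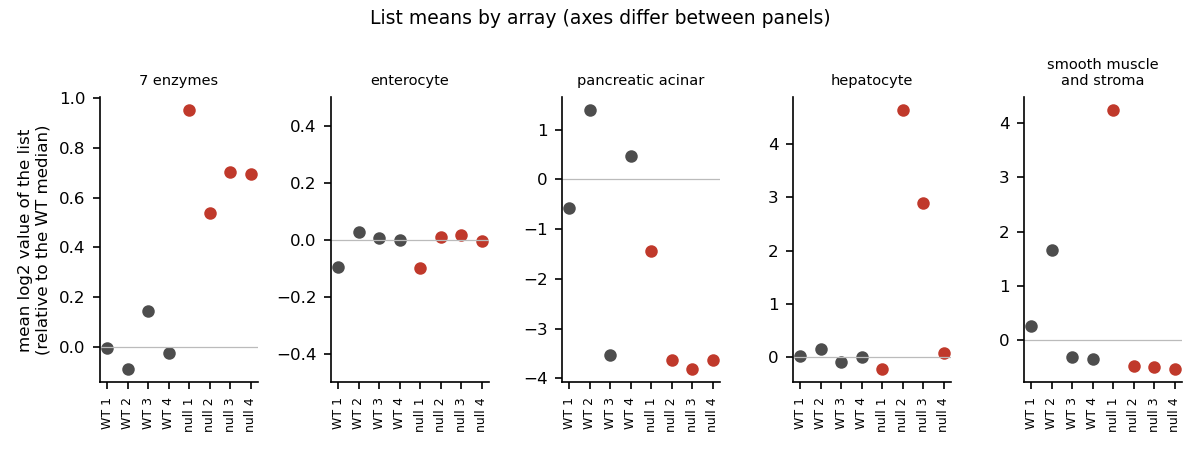
Mean log2 value of the 7 enzymes and of 4 cell type marker lists (panels, each with its own y axis) on each array (x axis; null is IE-Cpr-null, WT arrays in grey). The enzyme means are 0.54 or more on the IE-Cpr-null arrays and 0.15 or less on the WT arrays, while muscle markers are highest on IE-Cpr-null 1 and hepatocyte markers on IE-Cpr-null 2 and 3.

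Beyond squalene, 9 of the 11 measured sterol enzymes were higher and 2 lower. Their median difference was 0.25, and the groups were apart in 5. Sqle, the squalene epoxidase that acts directly after Fdft1, rose by 1.34 (SE 0.12, limma adjusted p = 0.0184 over genes) and was the only gene of these pathway lists to pass in that fit. The other 4 with separate groups were Cyp51 (0.75, SE 0.10), the oxidosqualene cyclase Lss (0.63, SE 0.22), the sterol reductase Tm7sf2 (0.42, SE 0.050) and Nsdhl (0.25, SE 0.070), a dehydrogenase of C4 demethylation. Hsd17b7 differed by 0.36 (SE 0.11), more than Nsdhl, but its groups overlapped. The late enzymes Sc5d, Ebp and Dhcr7 lay between -0.049 and 0.11. The groups overlapped in 6 of these 11 genes and in none (0) of the 7 up to squalene, a difference between the lists that was not tested.

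Genes that supply the pathway or use its products were mixed in direction. Of 13 measured enzymes that use isoprenoid diphosphates or modify prenylated proteins, 4 were higher and 9 lower (median -0.029 as a difference). Ggps1, which makes geranylgeranyl diphosphate from farnesyl diphosphate, differed by 0.089 (SE 0.13) with overlapping groups. Fntb, the farnesyltransferase beta subunit, differed by -0.46 (SE 0.20, limma adjusted p = 0.569). Zmpste24, a protease that processes farnesylated prelamin A, was the only one whose groups did not overlap (-0.16, SE 0.037, limma adjusted p = 0.256), where 3% of all genes had IE-Cpr-null arrays wholly below WT. Of 3 measured genes of acetyl-CoA supply, the cytosolic citrate lyase Acly differed by 0.12 (SE 0.050) and the acetyl-CoA synthetase Acss2 by 0.072 (SE 0.077), both with overlapping groups. Acat1, the mitochondrial acetoacetyl-CoA thiolase, lay lower without overlap (-0.29, SE 0.056, limma adjusted p = 0.187).

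Among 15 measured genes of the SREBP machinery and of other sterol or lipid control, 5 were higher and 10 lower (median -0.035 as a difference). Srebf2, which encodes SREBP-2, differed by 0.24 (SE 0.12, limma adjusted p = 0.648), and WT 3 (0.43) overlapped the IE-Cpr-null arrays (0.24 to 0.49). Srebf1, which encodes the related factor of fatty acid synthesis, lay lower without overlap (-0.23, SE 0.073, limma adjusted p = 0.41). Scd2, a stearoyl-CoA desaturase, lay higher without overlap (1.65, SE 0.37, limma adjusted p = 0.256). Its WT arrays were spread from -0.43 to 1.09 and its IE-Cpr-null arrays from 1.28 to 2.28. Insig2, which retains the SREBP escort protein in the endoplasmic reticulum, differed by 0.25 (SE 0.098) with overlapping groups.

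The genes whose profile over the 8 arrays lay nearest to the mean of the 7 enzymes, by root-mean-square distance and outside the 7, were Cyp51 (0.043), Aacs (0.14), Fam126a (0.22), Bicdl1 (0.22) and Lss (0.23). Cyp51 lay nearer to that mean than any of the 7 did itself, where the distances ran from 0.099 (Fdft1) to 0.46 (Mvd). Its WT arrays stood at 0.057, -0.11, 0.17 and -0.052 and its IE-Cpr-null arrays at 1.01, 0.58, 0.77 and 0.69. Aacs encodes acetoacetyl-CoA synthetase, which activates acetoacetate in the cytosol for sterol and fatty acid synthesis, and its arrays stood at 0.12, -0.025, 0.17 and -0.0025 on the WT arrays and 0.68, 0.31, 0.62 and 0.63 in IE-Cpr-null. Both were highest of their group on IE-Cpr-null 1 and lowest on IE-Cpr-null 2. This likeness is a description over 8 arrays of 2 genotypes.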

How the data were processed

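RNA from enterocytes, extracted with TRIzol, column-purified and biotin-labelled, was hybridised to arrays, 4 per genotype. The deposited table holds log2 values per probe set. GCRMA is named in the submitters' processing notes (no version or setting is given in the sources used here). The deposited log2 values were also centred: the WT median was 0 (within 9.5e-07) in all 18443 probe sets, so dim probe sets could not be filtered by level. Groups and replicate numbers came from the titles. No batch was given.

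Each probe set was fitted with limma 3.58.1 (R 4.3.3; lmFit, eBayes, prior degrees of freedom 1.54), two-sided, with Benjamini-Hochberg adjustment over the table and a threshold of 0.05. Genes were fitted as the mean of their probe sets over 10401 single-symbol genes (16689 probe sets; 616 carried several symbols and 1138 none here). Pairs of probe sets were compared by exact permutation over 70 assignments. Scripts were tested on simulated data. Alternatives were quantile normalization, median centring, array weights, a replicate block, a robust prior, filters and left-out arrays.

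Members and lists were chosen with earlier results of these data known. All member probe sets are named. From other pathway lists, genes with groups apart and up to 4 with the largest differences could be named, and the 5 genes nearest to the enzyme mean. Msmo1, Lbr, Sc5d, Ebp, Dhcr7, Srebf2, Insig2, Ggps1, Acly and Acss2 fall outside or were picked within this rule for their role, after their values were seen. Further marker lists (lymphocyte, macrophage and dendritic cell, goblet and Paneth, enteroendocrine) had median differences of 0.13, -0.49, -0.24 and -0.25. In that order, 10 of 11, 0 of 9, 0 of 6 and 2 of 9 measured genes were higher in IE-Cpr-null. The part of these transcripts in the enzyme difference was not tested. Promoter windows are RefSeq sequences of build GRCm38.p6. The files name no build.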

Additional observations from a re-analysis of the deposited data

Results flagged for a closer look

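In groups of 4 arrays, a single array was marked where its gap to the nearest other array exceeded Dixon's critical share of the group's range. Of 64 such groups, 7 were marked, where chance marks about 1 in 20. Pmvk on WT 2 read -0.30, as a probe set and as a gene with that 1 probe set, against -0.0041 to 0.026 on the other WT arrays. On IE-Cpr-null 1, Mvd probe set 1448663_s_at read 2.05 against 1.35 to 1.40 on the others of its group, and Idi1 probe set 1423804_a_at read 1.58 against 0.83 to 0.85. Smooth muscle and stromal markers were also high on IE-Cpr-null 1 (mean 4.23), and their part in these values was not tested. Fdps probe set 1423418_at read 0.18 on WT 3 against -0.029 to 0.0058. Only part of the other pathway genes was among these groups. Of that part, Tm7sf2 read -0.036 on WT 4 against -0.0009 to 0.0046, and Acat1 read 0.13 on WT 1 against -0.023 to -0.0065. Genes outside it were not screened, even where 1 array stood apart, as for Dhcr7 on WT 2 (0.17 against -0.021 to 0.0017).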

How the results depend on the processing

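All 7 genes stayed higher with separate groups in each of the 19 alternatives. Leaving out arrays, or refitting the same values (array weights, replicate block, robust prior), cannot make separate groups overlap. Only quantile normalization, median centring and the probe set filters could have changed this. The median difference ran from 0.50 to 0.79, the latter among probe sets above the median SD (0.7937) and without probe sets near the array medians (0.7937). With single arrays left out it ran from 0.5028 to 0.6407. The count past the threshold was less stable. With array weights 14 of 16 member probe sets and 7 of 7 genes passed in limma, as did 741 probe sets in all (4.02%). The weights ran from 0.329 (IE-Cpr-null 1) to 6.49 (IE-Cpr-null 4), so that fit rests largely on 1 array. Without WT 3 and IE-Cpr-null 1, 2 member probe sets, 1 gene and 29 probe sets in all passed. Without WT 2 and IE-Cpr-null 1, 1 member gene passed. With single arrays left out, 0 to 1 member probe sets (1 without IE-Cpr-null 2), 0 to 2 member genes (2 without IE-Cpr-null 1) and 1 to 16 of all probe sets passed. Of all probe sets, 1 passed with quantile normalization, 1 with the replicate block and 7 among probe sets above the median SD, where fewer were tested. Quantile normalization, which acted on centred values, gave a lowest adjusted p of 0.967 over member probe sets and 0.522 over member genes. The replicate block left 0 members past the threshold. Arrays of the same number correlated in their deviations at -0.0579, -0.041, 0.256 and 0.131. Arrays of different number correlated at -0.322 to 0.337. So few values cannot decide whether the numbers pair the arrays.

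Small differences changed sign. Fdft1 1438918_at went to -0.00018 without WT 3 and IE-Cpr-null 1. With single arrays left out, the gaps between probe sets ran from -0.061 to 0.13 for Hmgcs1 1433443_a_at over 1433446_at, from -0.038 to 0.011 for 1433444_at over 1433445_x_at, from -0.085 to 0.017 for 1433444_at over 1433446_at, from -0.064 to 0.032 for 1433445_x_at over 1433446_at, and from -0.32 to 0.0091 for Mvd 1417303_at over 1448663_s_at. The causes were not tested. Signal over background is unknown in centred values.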
